A study of Oryza sativa with 6 samples.

Results

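The transcripts described here come from 7 rice loci, 4 expansins (EXPA1, EXPA2, EXPA4 and EXPA21) and 3 xyloglucan endotransglucosylase/hydrolases (XTH2, XTH8 and XTH19). They were taken by locus identifier, by a choice made with earlier results of these data known, from a table of 27397 genes, and all 7 were read in every library. The groups were wild-type Nipponbare and pine1-1a, a PINE1 knockout line in the same Nipponbare background, with 3 samples each. Every sample pooled the basal 1 cm of 8 untreated plants, stem with shoot apex, cut on day 20 from germination under 16 h of light a day. The sources used here do not say what the mutation is or how many lines were made. Separate sowings are not named for the pools, so a p-value reflects the spread among these pools, which may be technical.

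Expansins are wall proteins that loosen growing cell walls without cutting the polymers, most strongly at acidic pH, and the EXPA genes form the alpha-expansin branch. XTH enzymes cut xyloglucan, a hemicellulose that binds cellulose, and join the cut end to another xyloglucan chain or to water. Both families are known from elongating tissue, and in rice internodes alpha-expansin transcripts have been linked with rapid growth. The study asks how PINE1, a transcription factor that its title ties to internodes that stay short, bears on stem growth, so these wall genes are read here in the tissue where internodes form.

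Recovered reads per library ranged from 27918842 to 36250239. PINE1 (Os12g0617000) was read in all 6 libraries, at 3569, 3674 and 2943 normalized reads in wild type and 5199, 5044 and 4173 in pine1 (log2 0.50, SE 0.10, limma adjusted p = 0.021). Omitting replicate 1 or 3 of wild type (adjusted p = 0.0513 and 0.0552 in limma) or replicate 1 or 2 of pine1 (0.0579 and 0.0722) ended that call, with every pine1 library still above every wild type library. A transcript that is higher in the knockout does not check the labels, so directions below refer to the libraries labelled pine1. On log2(normalized reads + 1), with an adjusted p under 0.05 as the call, limma placed 970 of 24149 tested genes higher in pine1 (4.02%) and 589 lower (2.44%), or 6.46% in all; edgeR called 6.49% (4.05% higher, 2.44% lower) and DESeq2 8.18% (4.87% higher, 3.31% lower). Among the marker loci, the 3 KNOX genes of the shoot meristem summed to between 1765 and 2328 normalized reads in wild type and between 3202 and 3998 in pine1, and 2 of the 3 rose. The 3 loci written down as leaf photosynthesis markers summed to 1129 to 1376 and 1247 to 1318, with 1 of the 3 higher, and the 3 written down as root markers to 393 to 635 and 179 to 420, with 0 called by limma, edgeR or DESeq2 and all 3 at an unadjusted p under 0.05 in limma. Over all genes tested, 5041 of 24149 had such an unadjusted p. The root loci differed in direction. Os02g0662000, which makes up most of that sum, had means of 446 in wild type and 218 in pine1 (log2 -1.18), Os02g0745100 of 43.5 and 71.1 (log2 0.69), and Os03g0107300 of 7.69 and 44.7 (log2 3.78), with 0 reads in wild type replicates 1 and 3. The leaf loci differed in direction too. Os12g0292400 had means of 824 in wild type and 691 in pine1 (log2 -0.25). Os12g0274700 had means of 114 and 139 (log2 0.27), and Os12g0291100, the locus called higher, of 331 and 443 (log2 0.41). The part of these tissue markers in the results below was not tested.

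Of the 7 loci, 2 rose, 2 fell and 3 did not pass, where 4.02% of all tested genes were called higher, 2.44% lower and 6.46% in either direction; edgeR and DESeq2 also called 4 of the 7. With 1 library left out, limma called 2 of the 7 when that library was a replicate 1 or 2, of either genotype, and 1 when it was a replicate 3. By family, all 3 XTH genes passed, with XTH19 and XTH8 higher and XTH2 lower in pine1. Of the 4 expansins, EXPA21 fell and the other three did not pass. The median log2 fold change was -0.36 over the 7 loci and 0.00 over all genes tested. For 4 of the 7, every library of one genotype lay on one side of the other genotype, with pine1 above in 2 and below in 2; over all genes tested this held for 26.4%, with pine1 above in 13.5% and below in 12.9%. In bulk samples, fewer cells of a type and less RNA per cell cannot be told apart.

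**Figure D1:**
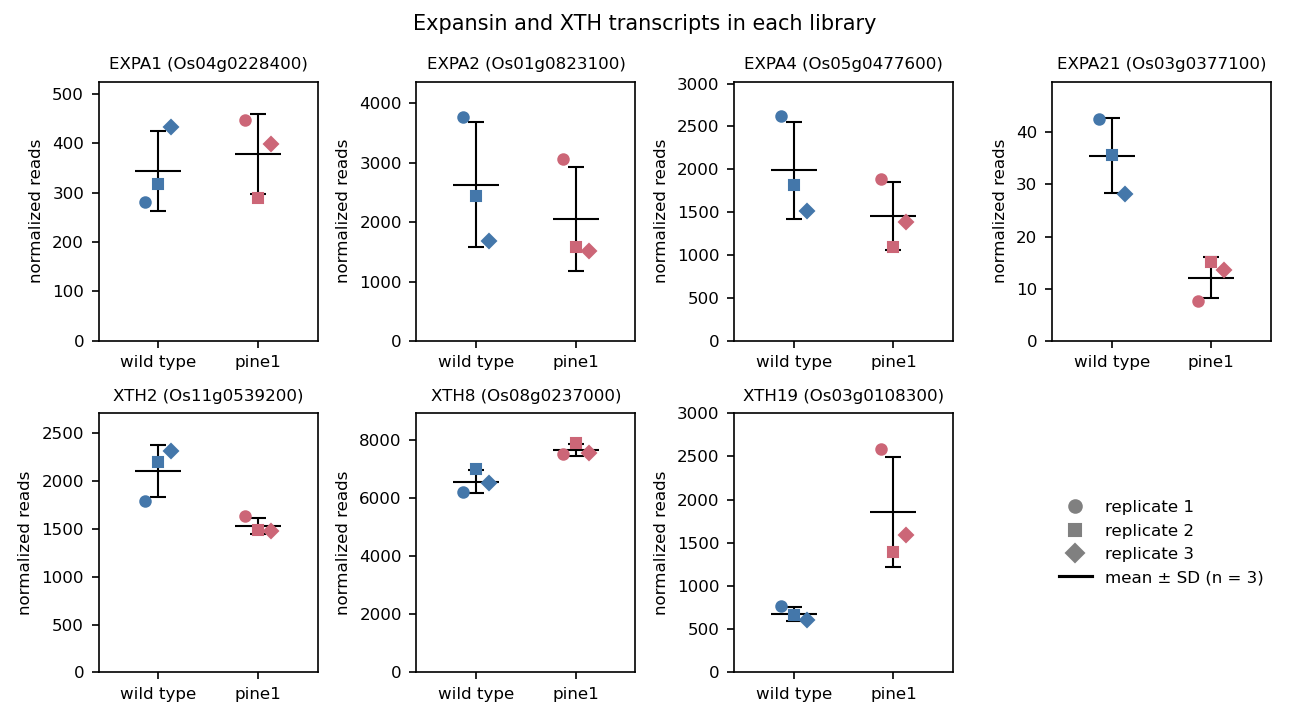
Normalized reads (vertical axes, each from 0) of the 7 loci in every library, with 3 wild type libraries in blue and 3 pine1 libraries in red; bars give the mean ± SD (n = 3) and symbols give the replicate number. The genotypes are apart in EXPA21, XTH2, XTH8 and XTH19 and overlap in EXPA1, EXPA2 and EXPA4.

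XTH19 (Os03g0108300, chromosome 3) changed most among the enzymes that cut and rejoin xyloglucan. Wild type held 770, 660 and 611 normalized reads (replicates 1 to 3), pine1 2583, 1395 and 1593. Every pine1 library stood above every wild type library, and pine1 replicate 1 stood well above the other pine1 libraries. The mean went from 680 ± 81.3 to 1857 ± 637 (SD, n = 3 each). The log2 difference, pine1 over wild type, was 1.40 with SE 0.20 and a 95% interval from 0.95 to 1.85 (adjusted p = 0.0039 in limma), which is 2.64-fold. Without pine1 replicate 1 the log2 change was 1.14, and leaving out any of the 6 libraries kept the adjusted p at or under 0.0168. The authors' deposited table names the gene OsXTH19, describes it as similar to XTH protein 32, and gives -1.45 (SE 0.30) for wild type over pine1 with an adjusted p of 6.6e-05.

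XTH8 (Os08g0237000, chromosome 8) encodes an XTH of which the transcript is known to respond to gibberellin in rice. The authors' deposited table describes it as XTH protein 8 but gives it the symbol OsXTH17. Wild type held 6211, 7000 and 6515 normalized reads (replicates 1 to 3), pine1 7512, 7892 and 7556. The groups did not overlap, and the gap from the highest wild type to the lowest pine1 library was small beside the levels themselves. The mean rose from 6575 ± 398 to 7653 ± 208 (SD, n = 3 each). The log2 difference, pine1 over wild type, was 0.22 with SE 0.05 and a 95% interval from 0.10 to 0.34 (adjusted p = 0.042 in limma), which is 1.17-fold. The call ended when any library but wild type replicate 2 was left out, with adjusted p = 0.146 and 0.129 in limma for the omission of wild type replicates 1 and 3, and 0.0677, 0.123 and 0.0766 for that of pine1 replicates 1, 2 and 3. The authors' deposited table gives -0.22 (SE 0.06) for wild type over pine1 with an adjusted p of 0.011.

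XTH2 (Os11g0539200, chromosome 11), named OsXTH2 in the authors' deposited table and described there as similar to the endotransglycosylase XET2, moved the other way. Wild type held 1798, 2205 and 2312 normalized reads (replicates 1 to 3), pine1 1634, 1487 and 1479. All pine1 libraries lay below the lowest wild type library, which was replicate 1. The mean fell from 2105 ± 271 to 1533 ± 87.4 (SD, n = 3 each). The log2 difference, pine1 over wild type, was -0.45 with SE 0.09 and a 95% interval from -0.66 to -0.24 (adjusted p = 0.022 in limma), so wild type was 1.37-fold higher. Omitting replicate 2 or 3 of wild type (adjusted p = 0.0841 and 0.0772 in limma) or of pine1 (0.0717 and 0.0745) ended the call, and omitting replicate 1 of either genotype did not (0.0057 for wild type, 0.0303 for pine1). The authors' deposited table gives 0.46 (SE 0.10) for wild type over pine1 with an adjusted p of 1.1e-04.

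XTH19 and XTH2 moved in opposite directions, and the ratio of their reads was higher in every pine1 library than in any wild type library. That order follows from the lack of overlap at each locus and is no further result. XTH19 had 0.428, 0.299 and 0.264 normalized reads per XTH2 read in the wild type libraries, and 1.58, 0.938 and 1.08 in those of pine1. The values are per gene and not per transcript length, so they show a shift between genotypes and not which transcript was more abundant. This ratio was chosen after its values were seen and was not tested.

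Loci beside XTH2 also differed between the genotypes. Of the 6 tested loci nearest to it by locus number, 3 on each side, 5 were called, 2 higher and 3 lower in pine1. Among all genes tested, limma called 4.02% higher and 2.44% lower, or 6.46% in all. OsFbox607 (Os11g0539600), an F-box gene by its symbol and the next tested locus, went from 351 ± 17.9 normalized reads in wild type (SD, n = 3) to 0 reads in every pine1 library. OsFbox608 (Os11g0539700), also of the F-box class, which picks proteins for degradation, fell from 158 ± 24.2 to 3.03, made of 3, 5 and 1 reads (log2 -5.42, limma adjusted p = 7.4e-05). Os11g0539800, described in the authors' deposited table as similar to Xaa-Pro aminopeptidase 1, rose from 4357 to 7791 (log2 0.84, limma adjusted p = 4.5e-05), while OsSTA262 (Os11g0539000) fell by 0.75 on the log2 scale (limma adjusted p = 0.018) and Os11g0537375 rose by 0.50 (limma adjusted p = 0.033). Leaving out single libraries ended the call of OsSTA262 in 3 of 6 cases (wild type replicate 1, adjusted p = 0.0785, wild type replicate 3, 0.0639, and pine1 replicate 3, 0.0512) and that of Os11g0537375 in all but that of wild type replicate 2, up to 0.101. None of the 6 loci around EXPA21, XTH8 or XTH19 was called by limma, edgeR or DESeq2. Of these neighbours, 1, 0 and 1 had an unadjusted p under 0.05 in limma, where 5041 of all 24149 genes tested did.

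Among the expansins, EXPA21 (Os03g0377100, chromosome 3) was the one that passed, at a low read depth. It had 42.6, 35.6 and 28.2 normalized reads in wild type replicates 1 to 3, made of 39, 37 and 33 reads, and 7.73, 15.2 and 13.5 in pine1 replicates 1 to 3, made of 8, 15 and 12 reads. The lowest wild type library held more than the highest pine1 library. The mean fell from 35.5 ± 7.19 to 12.1 ± 3.91 (SD, n = 3 each). The log2 difference, pine1 over wild type, was -1.50 with SE 0.32 and a 95% interval from -2.24 to -0.77 (adjusted p = 0.027 in limma), so wild type was 2.83-fold higher on the log2(value + 1) scale. From the 109 and 35 reads of the genotypes, scaled by library totals, the ratio of wild type to pine1 was 2.90 with an exact 95% interval of 1.97 to 4.38, which covers counting error only. Omitting any one wild type library (adjusted p = 0.119, 0.0936 and 0.0540 in limma for replicates 1 to 3) ended the call, as did omitting replicate 1 (0.0555) or 3 (0.0560) of pine1, while omitting pine1 replicate 2 did not (0.0402). The authors' deposited table names it OsEXPA21 and gives 1.55 (SE 0.49) for wild type over pine1 with an adjusted p of 0.024.

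EXPA4 (Os05g0477600, chromosome 5) is the rice expansin tied to internode growth in deepwater varieties. Wild type held 2621, 1820 and 1519 normalized reads (replicates 1 to 3), pine1 1887, 1095 and 1384. The groups overlapped, since pine1 replicate 1 lay above wild type replicates 2 and 3. Means were 1987 ± 570 and 1455 ± 401 (SD, n = 3 each), and the log2 fold change of -0.45 (SE 0.22, 95% interval -0.94 to 0.05) did not pass (limma adjusted p = 0.29). This point estimate was close to that of XTH2, whose libraries varied less.

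EXPA2 (Os01g0823100, chromosome 1), another alpha-expansin, had the widest spread of the 7 loci among libraries of one genotype. Wild type held 3771, 2441 and 1687 normalized reads (replicates 1 to 3), pine1 3063, 1590 and 1510. The groups overlapped, with replicate 1 the highest library of each genotype. Means were 2633 ± 1055 and 2054 ± 874 (SD, n = 3 each). The log2 difference, pine1 over wild type, was -0.36 with SE 0.31 and a 95% interval from -1.07 to 0.35 (adjusted p = 0.57 in limma). Leaving out 1 library moved that value between -0.69, without pine1 replicate 1, and -0.06, without wild type replicate 1.

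EXPA1 (Os04g0228400, chromosome 4) also belongs to the alpha-expansins. Wild type held 281, 316 and 433 normalized reads (replicates 1 to 3), pine1 446, 289 and 398. The groups overlapped over most of their range. Means were 343 ± 79.9 and 378 ± 80.6 (SD, n = 3 each). The log2 difference, pine1 over wild type, was 0.14 with SE 0.19 and a 95% interval from -0.30 to 0.57 (adjusted p = 0.74 in limma). The intervals of EXPA1, EXPA2 and EXPA4 reach up to 1.49-fold (EXPA1) and down to 0.476-fold (EXPA2) of wild type, so these 3 samples a group do not show that the expansins were alike in both genotypes.

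**Figure D2:**
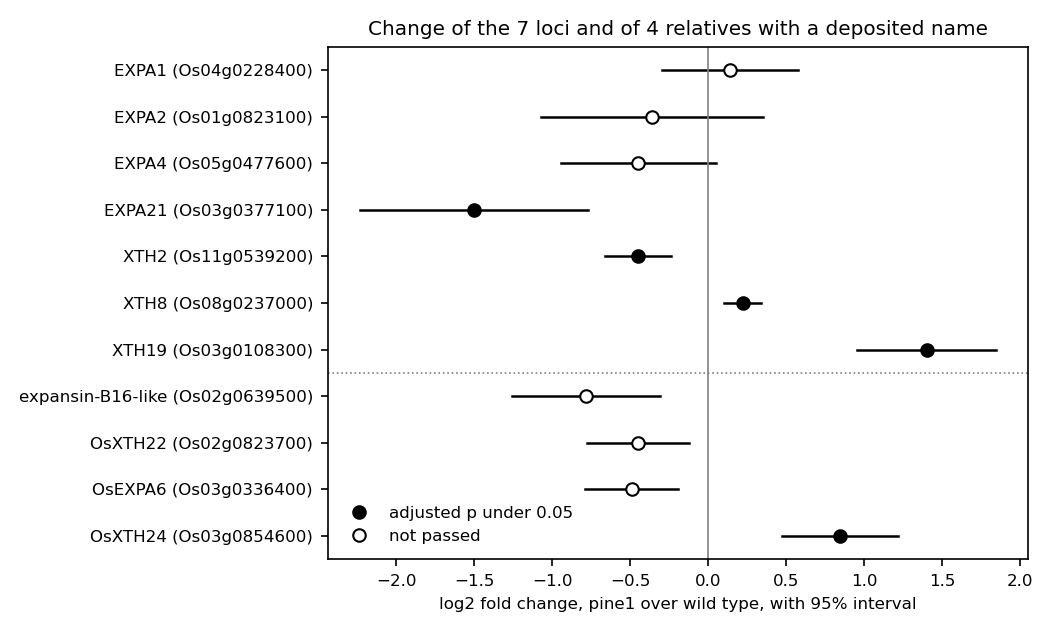
Log2 fold change of pine1 over wild type (horizontal axis, with its 95% interval from limma) for the 7 loci, above the dotted line, and for 4 relatives that carry a family name in the authors' deposited table, below it. Filled points have an adjusted p under 0.05: EXPA21 (-1.50) and XTH2 (-0.45) lie below 0, and XTH8 (0.22), XTH19 (1.40) and OsXTH24 (0.85) above it.

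Spread among libraries differed between the loci. The residual SD on the log2(value + 1) scale was 0.57 for EXPA2, 0.40 for EXPA4, 0.39 for EXPA21, 0.35 for XTH19 and 0.32 for EXPA1, against a median of 0.13 over all genes tested. It was 0.15 for XTH2 and 0.07 for XTH8. By rank among all genes tested, EXPA2 stood at percentile 95.6 and XTH8 at 20.1. Replicate 1 was the highest library of its genotype for EXPA2, EXPA4 and XTH19 in both genotypes. Of these, EXPA2 was 0.60 and 0.66 above the genotype mean on the log2 scale in wild type and pine1, EXPA4 0.44 and 0.41, and XTH19 0.18 and 0.53.

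**Figure D3:**
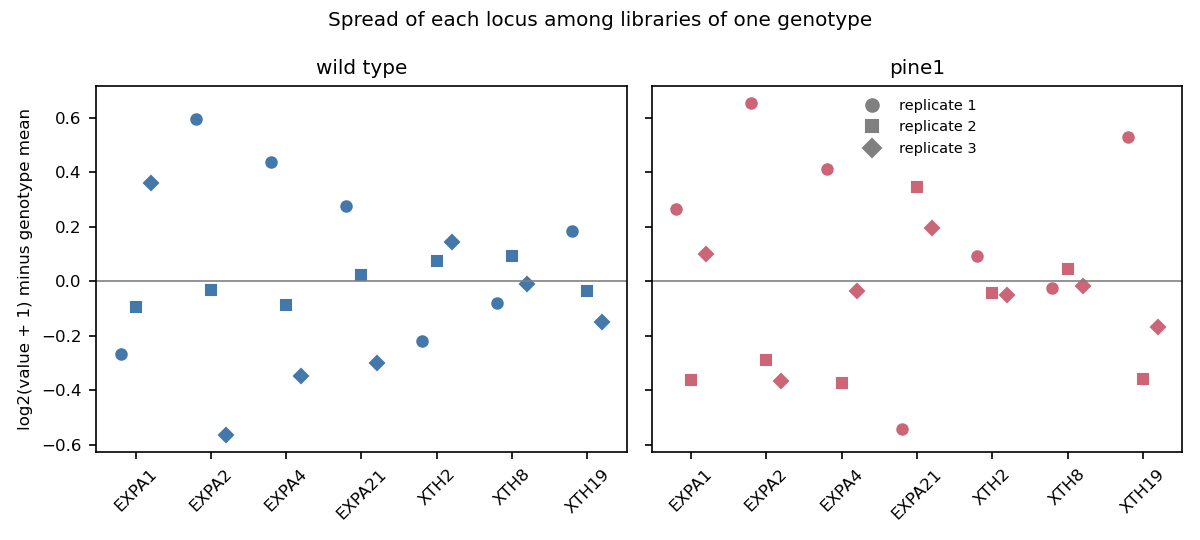
Distance of each library from the mean of its genotype on the log2(value + 1) scale (vertical axis) for the 7 loci, with wild type at left and pine1 at right and symbols for the replicate number. EXPA2 spans 0.66 to -0.56 over both panels, and XTH8 stays between -0.08 and 0.09.

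Each of the 7 loci was set beside the genes with the most similar profile, by Pearson's r of log2(value + 1) over the 6 libraries. Closest to XTH19 among the genes with a name in the authors' deposited table was GPAT (Os02g0114400), similar to a glycerol-3-phosphate acyltransferase, which joins fatty acids to glycerol (r = 0.994, 6 libraries). For XTH2 it was OsG6PDH1 (Os02g0600400), similar to glucose-6-phosphate dehydrogenase, which opens the pentose phosphate pathway (r = 0.996). For EXPA21 they were Os10g0551700, with a lipid transfer protein domain (r = 0.998), and Os10g0477100, similar to an ankyrin-like protein (r = 0.997). The 3 closest genes of XTH8, EXPA1, EXPA2 and EXPA4 have no name in that table. These values describe 6 libraries that fall into 2 genotypes, and the closest of 24149 genes will have a high r in so few libraries.

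Other members of both families were read from a list of 45 loci, of which 33 were in the table and 30 passed the filter on low reads. Of the 30, 1 rose, 0 fell and 29 did not pass, where 4.02% of all genes tested were higher and 2.44% lower, so the count is near the share over all genes. Their median log2 fold change was -0.03. An unadjusted p under 0.05 in limma was found in 12 of the 30 and in 5041 of the 24149 genes tested. Those 12 include all 4 loci with a deposited name, which the authors' test on the same libraries had picked. Among the 29 tested loci written from memory, 3 of them with a deposited name, limma called 0. The locus of the 30 that rose was OsXTH24 (Os03g0854600), an XTH by its symbol. It entered the list only through its deposited name, so the count of 1 is not independent of the authors' test. Wild type held 155, 241 and 226 normalized reads (replicates 1 to 3), pine1 344, 399 and 360, with no overlap (log2 0.85, SE 0.16, limma adjusted p = 0.017). The call was lost without pine1 replicate 2 (adjusted p = 0.0622) or pine1 replicate 3 (0.0528). Of the 4 relatives with a deposited name, 3 were called without wild type replicate 3 or pine1 replicate 1, and 0 without pine1 replicate 2 or 3. With the 7 loci, 3 of the 5 XTH genes that carry a family name in the authors' deposited table were higher in pine1. That table holds genes the authors' own test had picked, so these names are no independent evidence of direction.

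The other three relatives with a name were lower in pine1 in the means but did not pass in limma. OsEXPA6 (Os03g0336400), described in the authors' deposited table as similar to alpha-expansin OsEXPA4, held 2902, 2389 and 2071 normalized reads in wild type and 2038, 1635 and 1552 in pine1 (log2 -0.49, 95% interval -0.79 to -0.19, limma adjusted p = 0.063). Its libraries did not overlap. Os02g0639500, similar to expansin-B16 of the beta-expansin branch, held 484, 549 and 324 in wild type and 329, 235 and 217 in pine1 (log2 -0.78, limma adjusted p = 0.064), with wild type replicate 3 just below pine1 replicate 1. OsXTH22 (Os02g0823700) held 540, 739 and 664 in wild type and 527, 388 and 508 in pine1 (log2 -0.45, limma adjusted p = 0.11). DESeq2 called all 4 named relatives, 1 higher and 3 lower. Their names come from genes that the authors' test had picked from the same libraries, so these calls are no independent evidence. OsEXPA6 and Os02g0639500 passed in limma without wild type replicate 3 (adjusted p = 0.0375 and 0.0194) or pine1 replicate 1 (0.0278 and 0.0327).

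The 41 listed loci without a deposited name were written from memory, so they are counted and not named. Of these, 26 were tested, and 8 had an unadjusted p under 0.05 in limma, where 5041 of all 24149 genes tested did. Of the 26, limma and edgeR called 0 and DESeq2 called 1, lower. Of all genes tested, limma called 6.46%, edgeR 6.49% and DESeq2 8.18%. Log2 fold changes of the 26 ran from -1.33 to 0.47, with a median of 0.02. The libraries did not overlap in 6 of the 26, with pine1 below in 5 and above in 1, where 12.9% and 13.5% of all genes tested lay below and above.

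**Figure D4:**
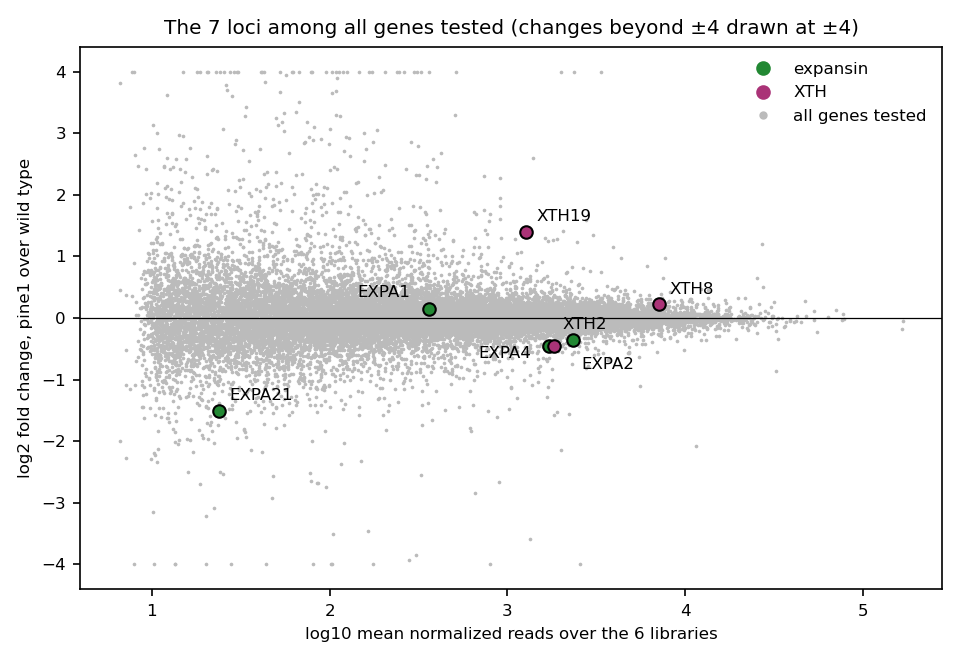
Log2 fold change of pine1 over wild type (vertical axis, values beyond 4 in either direction drawn at the edge) against the log10 mean of normalized reads over the 6 libraries (horizontal axis) for the 24149 genes tested, in grey, with the 4 expansins in green and the 3 XTH genes in purple. XTH19 (1.40) lies near the upper edge of the genes at its level, and EXPA21 (-1.50) sits among genes with few reads. XTH8 (0.22) sits among genes with many reads, some of which lie higher, such as Os11g0539800 (0.84).

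Genes whose names hold those of other wall-loosening enzymes were matched. This can reach only genes that the authors' own test had picked, so the count is no independent evidence. Of all genes tested, limma called 4.02% higher and 2.44% lower in pine1. Of the 13 matches it called 5 higher and 3 lower, and 5 did not pass. Among those that did not pass were Os02g0537000, with a pectinesterase inhibitor domain, and OsBURP12 (Os08g0380100), similar to a polygalacturonase beta subunit. The matches are thus not all wall-loosening enzymes. OsGH9B9 (Os06g0247900), similar to an endo-1,4-beta-glucanase that cuts glucan chains, rose from 202 to 418 normalized reads (log2 1.05, limma adjusted p = 0.0014), and OsPGL12 (Os11g0249400), a polygalacturonase, which cuts pectin, rose from 39.7 to 86.3 (log2 1.08, limma adjusted p = 0.013). OsPME28 (Os09g0571100) rose from 17.3 to 48.7 and OsPME3 (Os01g0312500) from 125 to 217, both pectinesterases, which remove methyl groups from pectin, while OsPME25 (Os08g0450100), also a pectinesterase, fell from 113 to 63.3. OsPGL28 (Os03g0833800), a putative polygalacturonase in the authors' deposited table, fell by 0.20 on the log2 scale (limma adjusted p = 0.041). The largest fall, 1.15 on the log2 scale, was in Os01g0946500, a beta-1,3-glucanase that the name pattern matched and that belongs to another enzyme class. With single libraries left out, limma called between 3 of the 13 (without wild type replicate 1 or 2) and 7 (without pine1 replicate 2), which ended the calls of OsPME28 and OsPME3 in 5 of 6 cases and of OsPME25 and OsPGL28 in all 6, while OsGH9B9, OsPGL12 and Os01g0946500 kept theirs throughout.

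**Figure D5:**
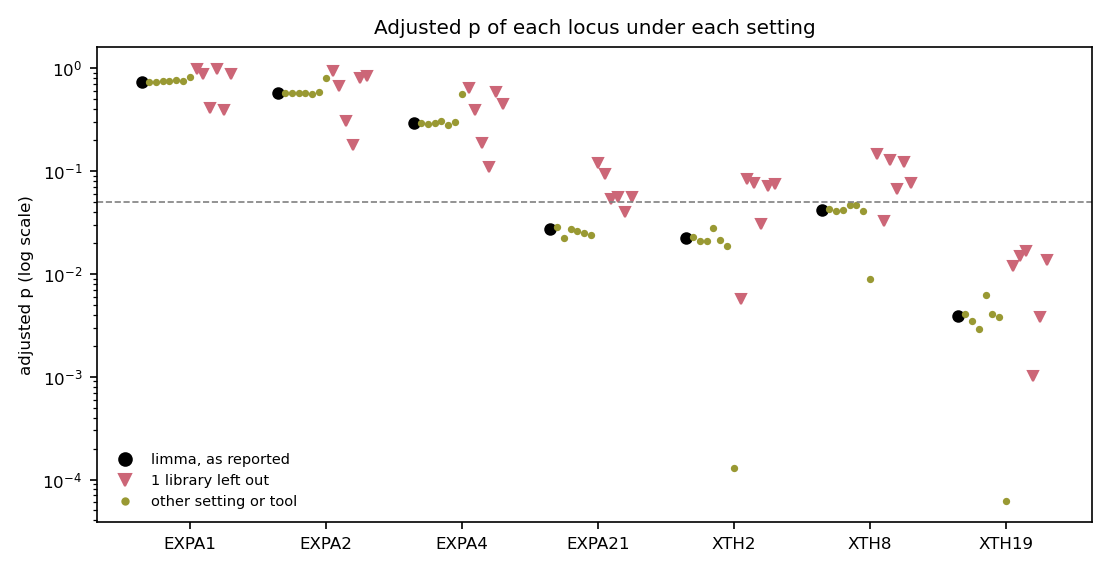
Adjusted p (vertical axis, log scale, with a dashed line at 0.05) of each of the 7 loci in limma as reported, with each library left out in turn, and with other scalings, filters, added constants or tools. In the settings drawn, XTH19 stays under the line, at 0.0168 or less, and EXPA1, EXPA2 and EXPA4 stay above it. EXPA21, XTH2 and XTH8 cross it when single libraries are left out. The replicate block, in which EXPA2 (0.037) and EXPA4 (0.034) passed in limma, is not drawn.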

How the data were processed

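Rice stem base RNA was sequenced after oligo(dT) enrichment and random priming, per the labels' protocols; the sources used here give no strand. FastQC, STAR, HTSeq, DESeq2 and the build IRGSP-1.0 are listed, with no roles, per the submitters' processing notes. The sources used here do not say how reads shared by near-identical family members were counted. The deposited normalized reads are a signal per gene. In each library 100% of the values were whole multiples of 1 step, within 0.001 reads, as counts divided by 1 size factor per library would be, and whole reads were recovered from that step. The authors' deposited table of 1962 genes gives log2 fold changes with their standard errors and p-values, raw and adjusted.

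limma (empirical Bayes, intensity trend) was fitted to log2(normalized reads + 1) for 24149 genes kept by filterByExpr with a minimum count of 10, with Benjamini-Hochberg adjustment over all of them. Fold changes on this scale understate those of genes with few reads. The members, lists and alternatives were chosen with earlier results of these data known; the lists of other loci were partly written from memory, and 3 of their loci carry a name in the authors' deposited table, which fits in all 3. Named were the 7 loci, PINE1, relatives with a deposited name, up to 4 called wall enzymes per direction, neighbours of called loci and the closest profiles; relatives that did not pass were added after their values were seen. The fit was tested on simulated data. Names of EXPA1, EXPA2 and EXPA4 come from the locus list alone; the RefSeq table (ASM3414082v1) matched 0 of the 7 identifiers. Chromosomes are read from locus identifiers. Alternatives were other added constants, filters and scalings, edgeR, DESeq2, a replicate block and each library left out. On the recovered reads edgeR called 979 genes higher and 589 lower. Fits ran in R 4.3.3 with DESeq2 1.42.0, edgeR 4.0.16 and limma 3.58.1; tables and plots were made with matplotlib 3.10.9, scipy 1.17.1, numpy 2.4.6 and pandas 2.3.3 under Python 3.11.15.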

Additional observations from a re-analysis of the deposited data

How the results depend on the processing

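No log2 fold change of the 7 loci changed sign under any of the alternatives. With the added constants 0.5 and 5, no filter, upper-quartile scaling, edgeR and DESeq2, each locus stayed on its side of the threshold; with a filter of 5 CPM EXPA21 was not tested and the other 6 loci stayed on theirs. That filter left 573 genes higher in pine1 in place of 970. Leaving out single libraries gave between 570 and 760 higher and between 266 and 550 lower genes. It moved the log2 fold change of EXPA21 between -1.68 and -1.23, of XTH2 between -0.56 and -0.38 and of XTH8 between 0.18 and 0.27, with adjusted p up to 0.119, 0.0841 and 0.146. XTH19 stayed between 1.14 and 1.58, EXPA1 between 0.01 and 0.32, EXPA2 between -0.69 and -0.06 and EXPA4 between -0.65 and -0.23. Of the 7 loci, 1 or 2 were then called in place of 4. The cause was not tested; such fits use 5 libraries.

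With the replicate number as a replicate block, EXPA2 (log2 -0.36, adjusted p = 0.037) and EXPA4 (-0.45, 0.034) passed downward and the other 5 loci stayed on their side of the threshold, within 1195 higher and 799 lower genes over the whole table. It also called OsEXPA6 (adjusted p = 0.0013) and Os02g0639500 (0.013) lower and 5 of the 26 unnamed relatives, 2 higher and 3 lower, and OsPGL28 was not called (0.053). The labels do not say what the numbers mark. Deviations from the genotype means correlated by 0.06, 0.02 and 0.13 between libraries with the same number, across genes. Not every library correlated best with its own number. Such weak correlations in so few libraries cannot decide whether the numbers pair the samples. EXPA21 rests on 8 to 39 reads a library.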
